A study of Mus musculus with 9 samples.

Results

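The genes described here were the cytosolic ribosomal protein genes, found by symbol: a name that starts with Rpl or Rps and goes on with a digit, without the S6 kinase genes (Rps6k) and without symbols that carry "-ps" for pseudogene. Of 24346 gene symbols, 84 met the pattern, and 83 of these had a value of at least 1 FPKM (fragments per length of transcript and per number of mapped fragments) in at least 3 of 9 samples. The symbol left out by this limit was Rpl10l. The name pattern drew 73 core proteins of the ribosome, 43 of the large and 30 of the small subunit, and 10 symbols that are paralogues, retrotransposed copies or name-alikes (Rpl3l, Rpl7l1, Rpl22l1, Rpl36al, Rpl37rt, Rpl39l, Rps4l, Rps19bp1, Rps27l and Rps27rt). It missed 7 core genes with other names, among them Rplp0, Rplp1, Rplp2 and Rpsa, and these were described separately.

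The RNA came from macrophages of the lungs of C57BL/6 mice at postnatal week 10, with 3 samples in each of 3 groups. Ctrl-AM were alveolar macrophages of mice given vehicle, Tumor-AM were alveolar macrophages of mice with Lewis lung carcinoma cells labelled with tdTomato and inoculated orthotopically into the left lung, and Tumor-macrophage denotes the other, tumor-associated macrophages of such lungs. Per the study's methods, all were sorted as autofluorescent CD45+ F4/80+ cells, with Siglec-F marking the alveolar macrophages and CD11b without Siglec-F marking the others, so the groups are models defined by a gate and by a transplanted cell line. The labels name no altered allele in the mice.

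Each ribosome has a large subunit, which holds the site where peptide bonds form, and a small subunit, which reads the messenger RNA. Most of their proteins are encoded by 1 expressed gene each, and a cell makes them in near-equal amounts. Their messenger RNAs typically begin with a cytosine followed by a run of pyrimidines (the terminal oligopyrimidine tract), through which the TOR kinase and the RNA-binding protein Larp1 adjust their translation and stability to nutrients and growth signals. Ribosomal protein genes are also the parents of many processed pseudogenes, copies of their spliced messenger RNA that reads can match as well as the parent.

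The labelled cell types were checked first. The summed FPKM of 8 alveolar macrophage markers (Siglecf, Pparg, Marco, Mrc1, Siglec1, Car4, Fabp4 and Ear1) ranged from 3141 to 3224 (Ctrl-AM), 2388 to 3204 (Tumor-AM) and 131 to 156 (Tumor-macrophage). The sum of 7 markers of monocyte-derived macrophages, C1qa, C1qb, Ccr2, Cx3cr1, Itgam, Ly6c2 and Tgfb3, was 18.0 to 25.3, 59.1 to 101 and 9215 to 9612, so the labels held. Tumor-AM 2 stood apart in Marco and Car4, at 329 and 1169 FPKM against 60.2 to 95.3 and 554 to 658 in the other Tumor-AM samples. In the same order of groups, B cell markers summed to 12.7 to 16.9, 3.15 to 7.49 and 31.5 to 58.3 FPKM, with Pax5 at 0 throughout Tumor-AM, and cycling markers to 43.1 to 53.9, 47.1 to 59.2 and 69.4 to 114. T cell markers summed to 494 to 521, 405 to 476 and 20.1 to 40.8, with Cd2 at 399 to 516 FPKM in both alveolar groups and 9.53 to 26.0 in Tumor-macrophage. The other T cell markers, Cd3d, Cd3e, Cd3g and Lck, were low and went the other way. Each was higher in every Tumor-macrophage sample than in every Ctrl-AM sample. By group, Cd3d was at 0.435 to 1.46, 0.924 to 1.63 and 1.95 to 4.64 FPKM, and Lck at 1.23 to 1.91, 1.88 to 4.34 and 3.77 to 5.75. Fibroblast markers summed to 3.24 to 6.35, 7.84 to 50.1 (highest in Tumor-AM 3) and 6.11 to 9.55, and neutrophil, epithelial and endothelial markers overlapped between Ctrl-AM and Tumor-AM. The part of these lists in the results below was not tested. Depth, estimated from the steps between low FPKM values, was 0.910 to 1.14 times that of Ctrl-AM 1.

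The bases around the start sites of some of these genes are shown first, because the pyrimidine tract lies there. RefSeq's table of promoters (GRCm38.p6, 250 bases before and 50 after each start) held 63 of the 83 members. A tract, here a C followed by at least 4 further C or T bases and beginning within 5 bases of the annotated start, was found at 29 of these 63 (46.0%), against 23.6% of the 8195 genes tested that have a promoter in the table and 17 of 68 mitochondrial ribosomal protein genes. Where a gene had several annotated starts, any of them counted, and 1 start is shown for Rps24, Rpl34 and Rpl3l. Each line gives 10 bases before the start and 20 from it, 5′ to 3′ on the gene's strand, with the tract in capitals. The first 6 are members that changed in a comparison below and the next pair are the near-identical genes Rps27 and Rps27rt.
Rps24 (chr14:24490668-24490697, plus strand): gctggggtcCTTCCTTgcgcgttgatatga
Rpl27a (chr7:109519185-109519214, plus strand): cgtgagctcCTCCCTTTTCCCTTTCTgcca
Rps23 (chr13:90923112-90923141, plus strand): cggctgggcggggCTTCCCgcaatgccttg
Rpl34 (chr3:130730379-130730408, minus strand): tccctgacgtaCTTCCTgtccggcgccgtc
Rps18 (chr17:33955646-33955675, minus strand): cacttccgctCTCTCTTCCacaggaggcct
Rpl39 (chrX:37085203-37085232, minus strand): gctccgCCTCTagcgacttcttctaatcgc
Rps27 (chr3:90213629-90213658, minus strand): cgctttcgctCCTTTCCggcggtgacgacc
Rps27rt (chr9:114982720-114982749, minus strand): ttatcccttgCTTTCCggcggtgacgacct
No such tract lay at the start of Rpl10 and Rpl41, the most highly expressed core members, nor at that of Rpl3l and Rpl39l.
Rpl10 (chrX:74270806-74270835, plus strand): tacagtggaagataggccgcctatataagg
Rpl41 (chr10:128549149-128549178, minus strand): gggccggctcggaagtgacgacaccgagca
Rpl3l (chr17:24727816-24727845, plus strand): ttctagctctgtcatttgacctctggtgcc
Rpl39l (chr16:10170218-10170247, plus strand): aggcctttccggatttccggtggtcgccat
Over the whole 300-base window on both strands, CCGGAAG was present in 38.1% of the members and 21.95% of the genes tested, GGGCGG in 58.7% and 68.8%, TATAAA in 9.52% and 8.33%, and AAGATGGC in 9.52% and 5.92%. The letters are descriptions of these windows, since annotated starts can lie some bases from the true ones.

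Most of the 83 genes were abundant in all 3 populations. Their median FPKM, averaged over the 9 samples, was 299.9, against 9.96 for the 10686 genes tested, and 69 of them were over 100 FPKM. Rpl41, which encodes a short basic peptide of the large subunit, was highest at a mean of 1357 FPKM, and Rpl10, a protein that joins the large subunit late in its assembly, was at 1002. Rps27rt and Rps18 were at 960 and 942. At the low end, Rpl3l, Rpl39l and Rpl37rt had means under 10. Replicates lay close together, with a median coefficient of variation within groups of 5.58% for the members and 10.9% for the genes tested.

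Next, the share of all transcripts that these genes took was examined. Of the summed FPKM, they held 4.83%, 4.86% and 5.11% in the Ctrl-AM samples, 3.44%, 3.62% and 3.54% in the Tumor-AM samples, and 3.61%, 4.15% and 4.01% in the Tumor-macrophage samples. The means were 4.93% ± 0.157 (SD, n = 3), 3.54% ± 0.0889 and 3.93% ± 0.279. The share was thus lower in every sample of tumor-bearing lungs than in every control sample, while Tumor-AM and Tumor-macrophage overlapped through Tumor-macrophage 1, at 3.614% against 3.621% in Tumor-AM 2. This overlap was not seen for the 73 core genes (3.392% or more against 3.384% or less) or for the share of estimated reads, in which long transcripts weigh more. It remained when the total held only genes past the filter (up to 3.70% in Tumor-AM, from 3.64% in Tumor-macrophage) or no short RNA genes (3.75% and 3.71%). It also remained with the missed core genes added (4.04% and 4.01%) or with 3 pseudogenes described below added (3.79% and 3.77%). The members' share of estimated reads was 2.45% ± 0.0455, 1.76% ± 0.0527 and 2.01% ± 0.158 in the same order of groups, and Tumor-AM did not exceed 1.81% where Tumor-macrophage began at 1.85%. The share in Tumor-AM was 0.717 times that in Ctrl-AM, that in Tumor-macrophage 1.11 times that in Tumor-AM and 0.796 times that in Ctrl-AM, and no p was computed for a sum over the members. Both terms of the share moved: the mean summed FPKM of the members was 32109 (Ctrl-AM), 25370 (Tumor-AM) and 30107 (Tumor-macrophage), and that of all other genes 619164, 691810 and 737290. The 10 other genes with the highest level, led by Lyz2, Ftl1 and Fth1, took 23.1%, 27.5% and 27.6% of the total. Mitochondrial ribosomal proteins, 77 genes of a ribosome built from a separate set of proteins, took 0.558%, 0.463% and 0.407%. In bulk samples, fewer cells of a type and less RNA per cell cannot be told apart.

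**Figure D1:**
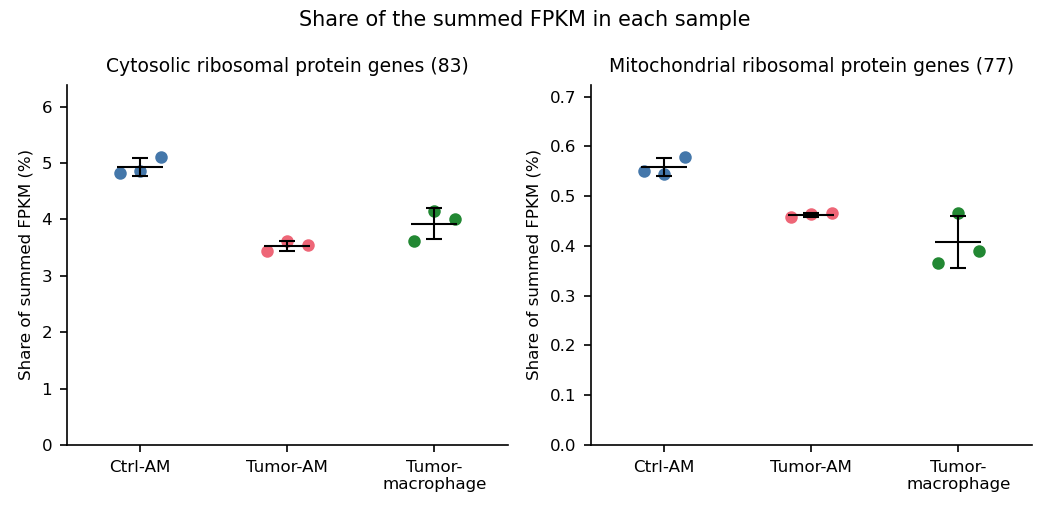
Share of the summed FPKM (y axis, percent, from 0) of the 83 cytosolic and the 77 mitochondrial ribosomal protein genes in each of 9 samples (points), with the mean and SD of each group of 3 (bars). The cytosolic share of the Ctrl-AM samples, 4.83% to 5.11%, lies above that of the Tumor-AM samples, 3.44% to 3.62%, and of the Tumor-macrophage samples, 3.61% to 4.15%.

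Both subunits had their lowest mean share in Tumor-AM, although the small subunit's shares overlapped between Tumor-AM and Tumor-macrophage. Tumor-macrophage 1 was at 1.552%, below Tumor-AM 2 and Tumor-AM 3 at 1.583% and 1.590%, while the large subunit's shares did not overlap. The large subunit's core genes held 2.45% ± 0.0746 (Ctrl-AM), 1.77% ± 0.0363 (Tumor-AM) and 1.98% ± 0.133 (Tumor-macrophage) of the summed FPKM, and the small subunit's held 2.15% ± 0.0631, 1.55% ± 0.0624 and 1.72% ± 0.147 (SD, n = 3). The ratio of the large to the small subunit sum stayed between 1.12 and 1.19 over the 9 samples, with overlapping groups.

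The presence of the tumor was addressed by comparing Tumor-AM with Ctrl-AM. Per the study's methods, control and experimental mice were bred apart, so tumor and breeding cannot be separated in this comparison. Ribosomal protein transcripts were lower in the alveolar macrophages of tumor-bearing lungs: 47 of the 83 fell at an adjusted p under 0.05, where 10.3% of all genes tested were called and 3.18% called lower, and none rose, against 7.11% called higher (limma on log2(FPKM + 1), two-sided, Benjamini-Hochberg over 10686 genes). At an unadjusted p under 0.05 the counts were 72 lower and 0 higher. The median change of the members was -0.34 on the log2 scale, 0.790-fold, beside 0.01 for all genes tested, and 81 of 83 estimates were below 0. For 75 members every Tumor-AM value lay below every Ctrl-AM value, against 13.4% of all genes with that order. The decrease was shallow, with an interquartile range of -0.41 to -0.24, and no core gene fell by 2-fold.

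Among the core genes, 25 of 43 large subunit genes and 20 of 30 small subunit genes fell. Rpl39, a small protein at the exit tunnel of the large subunit, had 478, 518 and 558 FPKM in the control samples and 313, 425 and 343 in Tumor-AM. Its change was -0.53 ± 0.12 (SE; adjusted p = 0.023), a call that was lost without a filter on low values and without Ctrl-AM 2, Ctrl-AM 3, Tumor-AM 1 or Tumor-AM 3. Rps24, a small subunit protein needed to process the precursor of its ribosomal RNA (chr14:24487125-24496959, plus strand), went from 167, 159.5 and 168 FPKM to 104, 118 and 125, without overlap. It fell by 0.51 ± 0.08 on the log2 scale (adjusted p = 0.0035). Rpl23a, which lies beside the exit tunnel (chr11:78180932-78183584, minus strand), had 481, 494 and 524 FPKM against 352, 356 and 349. It fell by 0.50 ± 0.06 (adjusted p = 0.0012), and both calls held in all settings tried. Rpl36a fell from 177, 186 and 192 to 117, 133 and 144 FPKM (-0.49 ± 0.12, adjusted p = 0.029), a call that was lost in 7 of 20 other settings, among them without Ctrl-AM 1, 2 or 3 or Tumor-AM 1 or 2. Of the most abundant genes, Rpl10 fell from 1189, 1184 and 1175 to 847, 889 and 871 FPKM (-0.44 ± 0.06, adjusted p = 0.0015), and Rps18, a small subunit protein, fell by 0.37 ± 0.08 (adjusted p = 0.014), a call that was lost without Ctrl-AM 1 or 3. Rpl41, at 1388, 1518 and 1502 FPKM against 1093, 1227 and 1273, did not pass (-0.30 ± 0.09, adjusted p = 0.070), although its groups did not overlap. It was called lower in some other settings (adjusted p down to 0.0040).

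Of the 36 members without a call, 34 had an estimate below 0. Rpl3, a protein near the peptidyl transferase centre, went from 326, 313 and 327 to 293, 284 and 276 FPKM (-0.18 ± 0.06, adjusted p = 0.079). Rpl19 had 540, 492 and 487 against 426, 460 and 462 FPKM (-0.17 ± 0.07, adjusted p = 0.17). Rps27 had by far the widest error, 1.92 ± 2.02, which is taken up with Rps27rt below.

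The count in this comparison depended on samples and scaling. Without Ctrl-AM 1, 2 or 3 it was 24, 28 or 20, and without Tumor-AM 1 it was 27, while without Tumor-AM 2, which stood apart in Marco and Car4, it was 41. With any 1 sample left out, the median change stayed between -0.37 and -0.29. Rescaled to the same sum in every sample (TPM), which moves the median of all genes to -0.10, 74 members were lower and 0 higher, and all genes were called lower in 7.83% and higher in 4.38%. Relative to the median of all genes, the members' median was -0.35 in the deposited FPKM and -0.38 to -0.35 over the 4 other scalings.

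**Figure D2:**
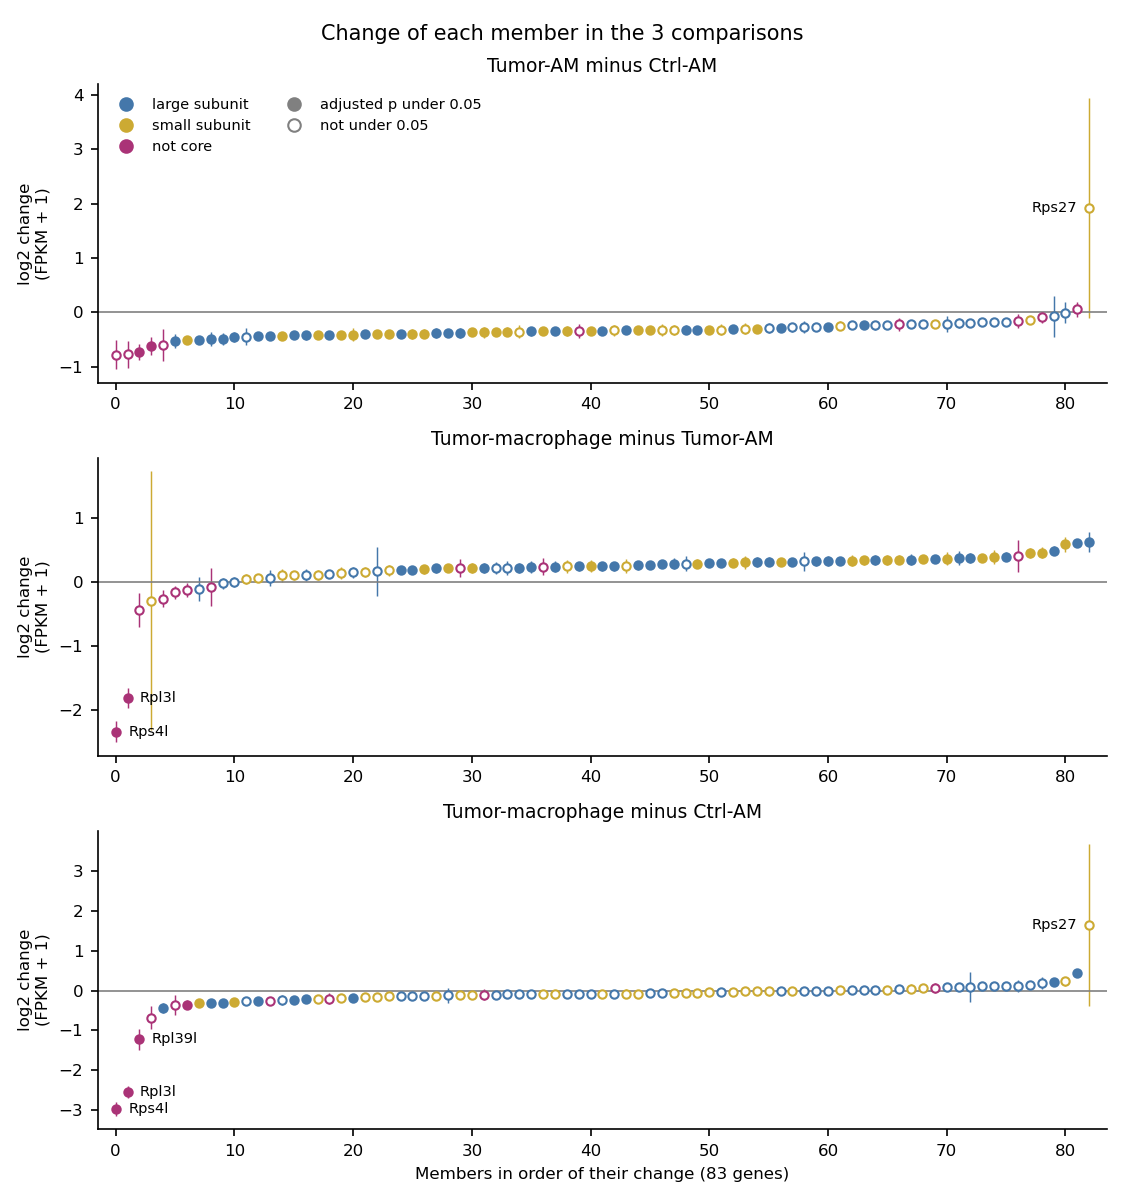
Change of each of the 83 members on the log2(FPKM + 1) scale with its SE (y axis), in order of size (x axis), for the 3 comparisons; filled points had an adjusted p under 0.05, and colours mark the subunit or the symbols that are not core. Most points lie below 0 for Tumor-AM minus Ctrl-AM (median -0.34) and above 0 for Tumor-macrophage minus Tumor-AM (median 0.25), while Rps4l, Rpl3l and Rpl39l lie at the bottom of the last panel.

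Both populations of tumor-bearing lungs were compared next, Tumor-macrophage against Tumor-AM. Here 50 of 83 members were higher and 2 lower in Tumor-macrophage, where 48.6% of genes were called, 24.2% higher and 24.4% lower. The median change was 0.25 (1.19-fold), beside 0.00 for all genes, with 73 estimates above 0, and the groups were apart in the higher direction for 49 members, against 27.6% of genes. All 50 were core genes, 31 of the large and 19 of the small subunit, and the 2 lower genes were the paralogues Rps4l and Rpl3l. This comparison and the first share the Tumor-AM samples. Under TPM, with a median of all genes at -0.08 (the log2 scale), 31 members were higher and 2 lower.

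The largest increase among the 50 belonged to Rpl34, from 50.1, 53.4 and 57.2 FPKM to 66.6, 78.0 and 111 (0.63 ± 0.15, adjusted p = 0.0056). Summed with the pseudogene Rpl34-ps1, which shares 30.5% of its 75-base windows and is listed at 442 to 577 FPKM, the change was 0.19 ± 0.08 (adjusted p = 0.091), so that the call did not hold. Rpl3 (chr15:80077791-80091868, minus strand, 10 exons, with 83.2% of its 75-base windows also in other genes) had the next largest increase. Its FPKM went from 293, 284 and 276 to 435, 436 and 439, a change of 0.62 ± 0.06 (adjusted p = 7.1e-06). Rps29, a zinc-binding small subunit protein, rose from 615, 754 and 695 to 907, 1007 and 1207 FPKM (0.59 ± 0.11, adjusted p = 0.0014). Rpl27a, Rps24 and Rps23 rose by 0.49 ± 0.07, 0.46 ± 0.08 and 0.45 ± 0.08 (adjusted p = 0.00017, 0.00068 and 0.00079), each with groups that did not overlap. At 151, 167 and 161 FPKM, Rps24 in Tumor-macrophage overlapped with Ctrl-AM. Among the abundant genes, Rpl10 at 953, 956 and 954 FPKM and Rps18 did not pass (0.13 ± 0.06 and 0.05 ± 0.08, adjusted p = 0.079 and 0.59).

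Tumor-macrophage and Ctrl-AM, which differ in cell population, in tumor and, per the study's methods, in breeding, were compared last. By this test 15 members were called, against 54.8% of all genes: 2 were higher, beside 27.7% of genes, and 13 lower, beside 27.1%. The median change was -0.08 beside -0.01 for all genes, and 68 members were not called. Rpl3 (326, 313 and 327 against 435, 436 and 439 FPKM) rose by 0.44 ± 0.06 (adjusted p = 8.2e-05), and Rpl19, a large subunit protein that helps bridge the subunits, had 540, 492 and 487 against 581, 627 and 568 FPKM (0.23 ± 0.07, adjusted p = 0.021). The call of Rpl19 was lost without Ctrl-AM 2, Ctrl-AM 3 or Tumor-macrophage 2, each of which left 1 higher member, and under TPM its estimate was -0.011. The 13 lower members were 9 core genes, among them Rpl36a (-0.43 ± 0.12, adjusted p = 0.012), Rps18 (-0.31 ± 0.08, adjusted p = 0.0051) and Rpl10 (-0.31 ± 0.06, adjusted p = 0.0010), and 4 of the symbols that are not core. Without Tumor-macrophage 1 the count of lower members was 8. Under TPM, where the median of all genes was -0.21, 63 members were lower and 1 higher, as against 13 and 2 in the deposited FPKM, so this count depends on the scaling. This comparison shares the Ctrl-AM samples with the first.

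By group means, 72 of the 83 members were lowest in Tumor-AM, 9 in Tumor-macrophage and 2 in Ctrl-AM. For 49 members every Tumor-AM value lay below every value of both other groups, an order that 2.72% of all genes tested showed. Sample by sample, the median member lay 0.41, 0.28 and 0.32 below the Ctrl-AM mean on the log2 scale in Tumor-AM 1, 2 and 3, and 0.18, 0.03 and 0.04 below it in Tumor-macrophage 1, 2 and 3. Tumor-macrophage 1 thus lay between the Tumor-AM samples and the other samples of its own group.

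**Figure D3:**
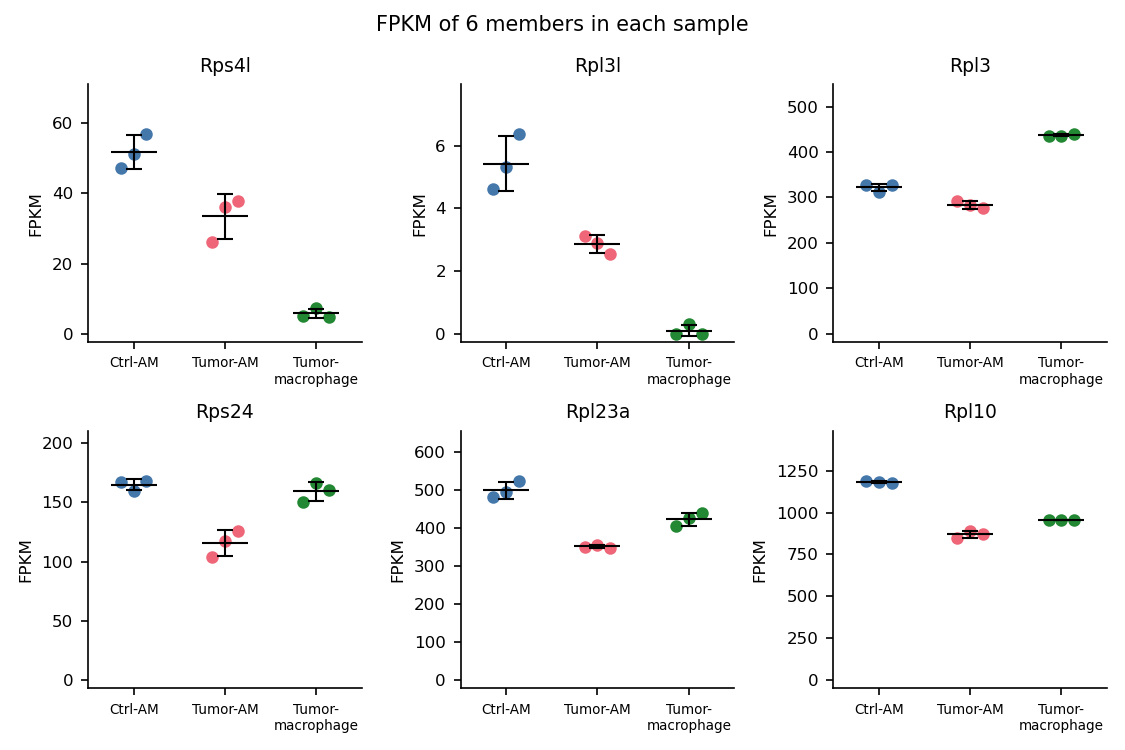
FPKM (y axis, linear) of Rps4l, Rpl3l, Rpl3, Rps24, Rpl23a and Rpl10 in each sample (points), with the mean and SD of each group of 3 (bars). Rps4l and Rpl3l descend from Ctrl-AM to Tumor-macrophage, Rpl3 is highest in Tumor-macrophage at 435 to 439 FPKM, and Rps24, Rpl23a and Rpl10 are lowest in Tumor-AM.

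To find which members moved apart from the others, the median member of each sample was subtracted and the test repeated. The subtraction was made for every gene, so it removed the members' shared change and shifted all other genes by it. The shares of all genes given below carry this shift and are no background for the members' counts. In Tumor-AM against Ctrl-AM, Rps24 (-0.22, adjusted p = 0.028) and Rpl23a (-0.21, adjusted p = 0.044) were lower than the median member, beside 0.767% of all genes, and no member was called higher by limma, beside 35.9%. In Tumor-macrophage against Tumor-AM, 16 members were called, beside 57.3% of genes. Of these, 5 were higher, beside 14.1% of genes: Rpl34 (0.35, adjusted p = 0.04997), Rpl3 (0.34), Rps29 (0.31), Rpl27a (0.22) and Rps24 (0.19). The value of Rpl34 is that of the gene without Rpl34-ps1. Their sum changed by 0.19 in this comparison (above), beside a median of 0.25 for the members. Another 11 were lower, beside 43.2% of genes, and those with the largest relative decrease were Rps4l (-2.61), Rpl3l (-2.09), Rpl39l (-0.71), Rps19bp1 (-0.53) and Rps27l (-0.43). In Tumor-macrophage against Ctrl-AM, Rpl3 (0.45) and Rpl19 (0.24) were higher, beside 26.4% of genes, and 13 members lower, beside 24.5%, led by Rps4l (-2.95), Rpl3l (-2.53), Rpl39l (-1.20), Rpl36a (-0.42) and Rpl7l1 (-0.34). In the first comparison the count was 0 without Ctrl-AM 1, 2 or 3, 1 without Tumor-AM 1, Tumor-AM 3 or Tumor-macrophage 3, and 4 without Tumor-macrophage 1 or 2, and in the second it was 10 without Tumor-AM 1.

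Among the paralogues, Rps4l and Rpl3l were lowest in Tumor-macrophage. Rps4l (chr6:148354656-148355598, plus strand, a single exon), a copy of the X-linked small subunit gene Rps4x, was at 47.1, 51.1 and 56.8 FPKM (Ctrl-AM), 26.2, 36.1 and 37.9 (Tumor-AM) and 5.15, 7.40 and 4.92 (Tumor-macrophage). No values overlapped between these groups. It fell by 0.63 ± 0.16 in Tumor-AM against Ctrl-AM (adjusted p = 0.039), a call that was lost in 8 of 20 other settings, among them without Ctrl-AM 1, 2 or 3 or Tumor-AM 1 or 2, and by 2.34 ± 0.16 in Tumor-macrophage against Tumor-AM (adjusted p = 8.1e-07), which held in all 20. Of the summed FPKM of Rps4x and Rps4l, Rps4l held 13.8% ± 1.19, 12.2% ± 2.15 and 1.86% ± 0.398 (SD, n = 3). Rpl3l, the paralogue of Rpl3 known from striated muscle (chr17:24727820-24736143, plus strand), was low throughout, at 4.60, 5.32 and 6.36 FPKM in the control samples and 3.12, 2.88 and 2.55 in Tumor-AM. In Tumor-macrophage it was listed at 0 in 2 samples and at 0.316 in Tumor-macrophage 2. It fell by 0.73 ± 0.16 and 1.81 ± 0.16 in those comparisons (adjusted p = 0.015 and 3.8e-06), on a scale with a pseudocount of 1 that understates changes of low genes. The first of these calls was lost with a pseudocount of 0.1 and without Ctrl-AM 3 or Tumor-AM 3. No 75-base window of Rpl3l occurs in another annotated transcript.

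Rpl39l, the paralogue of Rpl39 known from testis, was at 3.00, 2.15 and 2.63 FPKM (Ctrl-AM), 0.579, 1.20 and 1.59 (Tumor-AM) and 0, 0.879 and 0.939 (Tumor-macrophage). Of the 3 comparisons it passed in Tumor-macrophage against Ctrl-AM (-1.22 ± 0.27, adjusted p = 0.0027). In Tumor-AM against Ctrl-AM its estimate was the lowest of all members without passing (-0.78 ± 0.27, adjusted p = 0.095). Its groups did not overlap there, and it was called in some other settings (adjusted p down to 0.032). Rpl7l1, a nucleolar relative of Rpl7, had 36.3 to 38.6, 29.1 to 35.1 and 25.4 to 34.5 FPKM and passed in the same comparison (-0.35 ± 0.11, adjusted p = 0.022), a call lost without Ctrl-AM 1, Ctrl-AM 2, Tumor-macrophage 1 or Tumor-macrophage 3. Rpl22l1 exceeded its partner Rpl22, holding 71.1% ± 1.92, 74.8% ± 3.70 and 73.3% ± 3.07 of their sum, and Rpl36al exceeded Rpl36a with 64.7% ± 1.51, 67.1% ± 2.97 and 69.8% ± 2.21. On the deposited scale with all samples, neither Rpl22l1 (57.6 to 64.8, 49.8 to 66.7 and 54.4 to 74.5 FPKM) nor Rpl36al (333 to 349, 225 to 317 and 270 to 364 FPKM) passed in a comparison. Without Tumor-AM 2 both were called higher in Tumor-macrophage than Tumor-AM (adjusted p = 0.040 and 0.037), Rpl36al also without Tumor-macrophage 1 (0.049), and under TPM Rpl36al was called lower in both comparisons with Ctrl-AM (adjusted p = 0.036 and 0.042). Rps27l, a p53-inducible relative of Rps27, was at 420 to 441, 363 to 446 and 315 to 393 FPKM. It did not pass on that scale (-0.25 ± 0.10 in Tumor-macrophage against Ctrl-AM, adjusted p = 0.054), but in that comparison it was called lower in 8 of 20 other settings, among them under TPM and without Tumor-AM 1, Tumor-AM 2 or Tumor-macrophage 2, and it was lower against the median member in both comparisons with Tumor-macrophage (adjusted p = 0.00049 and 0.020). Rps19bp1, which is named for its binding to Rps19 and is no ribosomal subunit, was at 21.0 to 26.3, 21.9 to 29.6 and 18.3 to 23.6 FPKM, and was called against the median member alone (adjusted p = 0.0042, above) and under TPM in Tumor-macrophage against Ctrl-AM (adjusted p = 0.020). Rpl37rt, at 1.83 to 2.26, 0.184 to 1.87 and 0.378 to 1.20 FPKM, did not pass, although in Tumor-macrophage against Ctrl-AM (-0.68 ± 0.29, adjusted p = 0.075) it was called lower in 6 of 19 other settings, among them under TPM and without Tumor-AM 1 or Tumor-AM 3. Of the 10 symbols that are not core, 2, 2 and 4 were lower in the 3 comparisons, in the order given above, beside 3.18%, 24.4% and 27.1% of all genes.

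Reads of these genes can match pseudogenes, so the members' transcripts (GENCODE M21, GRCm38) were searched for 75-base windows, the read length, that occur in a transcript of another gene. Of the 83 members, 78 had such a window in an annotated pseudogene and 5 had none, among them Rpl3l, Rpl39l and Rps19bp1. The median member had 36.0% of its windows elsewhere, and 29 members over 50%. The highest shares were those of Rps27 (98.5%), Rpl9 (91.3%), Rps27rt (90.3%), Rpl10a (87.6%) and Rpl10 (84.9%). Of the 23 members with under 20% of windows elsewhere, 13 were lower in Tumor-AM against Ctrl-AM (median -0.38), and of the other 60, 34 were lower (median -0.33). In Tumor-macrophage against Tumor-AM, 11 of the 23 were higher and 2 lower (median 0.24), and of the 60, 39 were higher (median 0.25). Both classes thus had medians of the same sign.

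In 4 cases more FPKM stood on a window-sharing gene than on the core gene itself. Rps27 (chr3:90212522-90213651, minus strand, 4 exons), a zinc-finger protein of the small subunit, was listed at 4.56, 336 and 3.08 FPKM (Ctrl-AM), 5.56, 136 and 462 (Tumor-AM) and 4.93, 271 and 140 (Tumor-macrophage). Rps27rt (chr9:114982366-114982739, minus strand), a single-exon copy, had 1264, 997 and 1361, then 913, 811 and 460, then 1022, 694 and 1117 FPKM. In each group the sample with the highest Rps27 had the lowest Rps27rt. Their sum was 1269, 1334 and 1364 FPKM (Ctrl-AM), 919, 946 and 923 (Tumor-AM) and 1027, 965 and 1257 (Tumor-macrophage), so the sums of Tumor-AM lay below all others. Between 49.9% and 99.8% of the sum stood on Rps27rt. Alone, Rps27 changed by 1.92 ± 2.02 in Tumor-AM against Ctrl-AM (adjusted p = 0.62), whereas the sum fell by 0.51 ± 0.09 (adjusted p = 0.0077), and against Ctrl-AM the sum in Tumor-macrophage fell by 0.30 ± 0.09 (adjusted p = 0.021).

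The other 3 partners were processed pseudogenes. Rpl26 was listed at 10.98 to 35.6 FPKM over the 9 samples while Gm15772, on chromosome 5, was at 305 to 487 and held 89.5% to 97.3% of their sum. Rpl30 was at 28.4 to 50.9 FPKM and Gm12191, on chromosome 11, held 88.5% to 94.2% of the sum, and for Rpl34 and Rpl34-ps1 on chromosome 6 the pseudogene's part was 82.95% to 90.1%. Rpl26 alone changed by -0.07 ± 0.38 in Tumor-AM against Ctrl-AM (adjusted p = 0.94), and the sum with Gm15772 by -0.40 ± 0.08 (adjusted p = 0.015). Rpl30 alone changed by -0.01 ± 0.19 (adjusted p = 0.99), and the sum with Gm12191 by -0.34 ± 0.09 (adjusted p = 0.043). Both sums thus passed where the single genes did not. With these 4 sums in place of the single genes, 50 members were lower in the first comparison, and 50 were higher and 2 lower in the second. Which locus was transcribed cannot be told from these values.

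**Figure D4:**
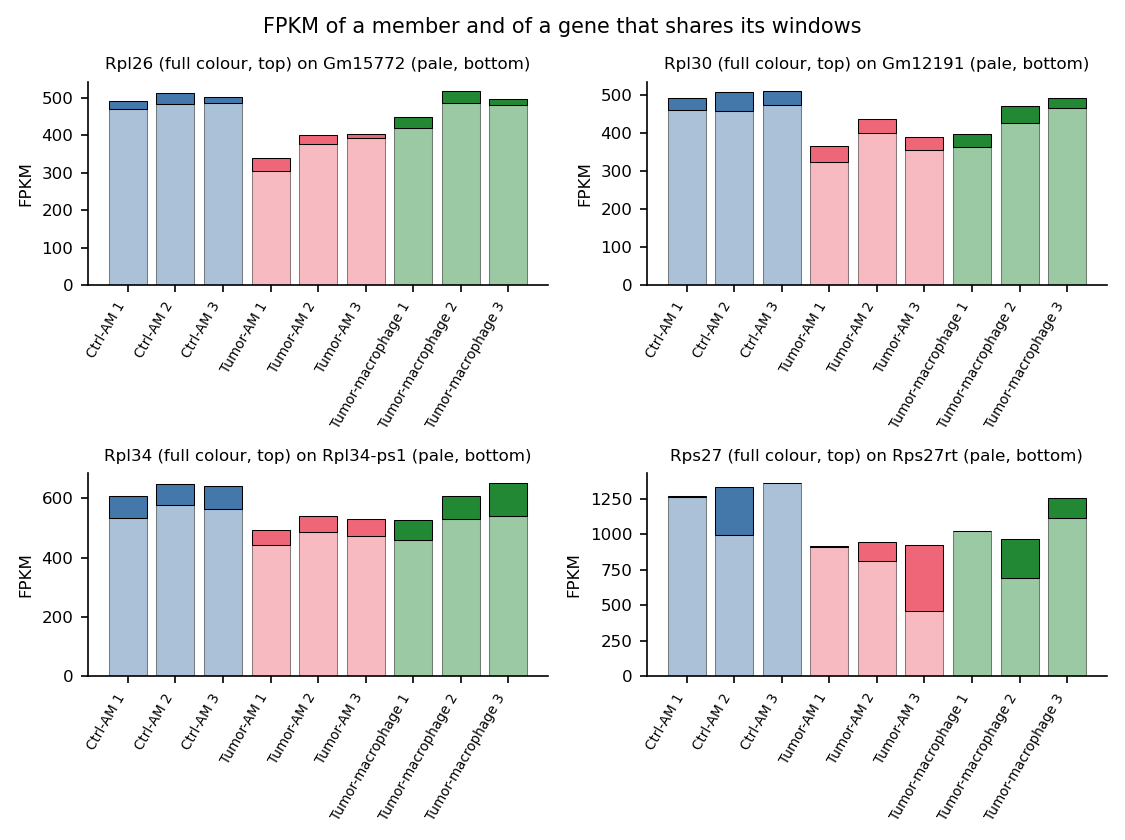
FPKM (y axis, from 0) of 4 core genes (full colour, top) stacked on the gene that shares their 75-base windows (pale, bottom) in each of the 9 samples. Rps27rt takes 49.9% to 99.8% of its sum with Rps27, while the sums of the Tumor-AM samples stay at 919 to 946 FPKM.

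The 7 core genes with other names also had estimates below 0 in Tumor-AM against Ctrl-AM. In that comparison 3 of them fell, beside 3.18% of all genes. These included Rplp1 of the large subunit's stalk and the laminin receptor gene Rpsa, which fell by 0.31 and 0.30 on the log2 scale (adjusted p = 0.027 and 0.024). The stalk genes Rplp0 and Rplp2 changed by -0.20 and -0.36 without passing. For all 7 every Tumor-AM value lay below every Ctrl-AM value, against 13.4% of all genes. In Tumor-macrophage against Tumor-AM, 4 rose, beside 24.2% of all genes, among them Rpsa and Rplp0 (0.23 and 0.22, adjusted p = 0.022 and 0.018). Against Ctrl-AM, 2 fell in Tumor-macrophage, near the 27.1% of all genes called lower. These were Rplp2 and Rplp1, which fell by 0.44 and 0.34 (adjusted p = 0.0090 and 0.0029). Rplp2 was at 492, 495 and 460 FPKM (Ctrl-AM), 308, 426 and 404 (Tumor-AM) and 320, 387 and 362 (Tumor-macrophage).

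Genes that work with the ribosome were set beside its proteins. Of 77 mitochondrial ribosomal proteins, 4 fell in Tumor-AM against Ctrl-AM (median -0.12), beside 3.18% of all genes. In Tumor-macrophage against Ctrl-AM, 33 fell and 8 rose (median -0.20), beside 27.1% and 27.7%. In Tumor-macrophage against Tumor-AM their median was -0.07, where that of the cytosolic genes was 0.25. Mrps6 carried the largest decrease, from 135 FPKM in each control sample to 70.9, 94.8 and 75.6 (Tumor-AM) and 23.5, 26.6 and 26.7 (Tumor-macrophage). Of 37 translation factors and partners, 5 fell in Tumor-AM (median -0.11), again beside 3.18%. Among them 13 rose and 1 fell in Tumor-macrophage against Tumor-AM (median 0.14), beside 24.2% and 24.4%. Their largest decrease in Tumor-AM was Eef1b2 (-0.36, adjusted p = 0.023), a subunit of the exchange factor for elongation factor 1, whose partner Eef1g rose most in Tumor-macrophage against Tumor-AM (0.65, adjusted p = 6.97e-05). Eif5a, the hypusine-carrying factor, was lowest there at -0.50 (adjusted p = 0.00063).

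Ribosome assembly and TOR genes were set beside them too. Of 52 assembly genes, 3 fell in Tumor-AM (median -0.08), beside 3.18% of all genes, and 22 fell and 6 rose in Tumor-macrophage against Ctrl-AM (median -0.22), beside 27.1% and 27.7%. Nop2, a nucleolar RNA methyltransferase, had the lowest change in both, -0.48 and -1.19 (adjusted p = 0.041 and 1.72e-05). Of 26 genes of TOR control, 2 rose in Tumor-AM (median -0.03), beside 7.11% of all genes, led by Gatsl3 (0.75, adjusted p = 0.0039), an arginine sensor of the pathway also called Castor1. In Tumor-macrophage against Tumor-AM, 7 rose and 8 fell, beside 24.2% and 24.4% of all genes, from the TOR inhibitor Deptor at -1.02 to Sesn1 at 2.198. The TOR counts thus lay near the background. These lists are described by counts and medians beside all genes, whose medians were 0.01, 0.00 and -0.01.

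**Figure D5:**
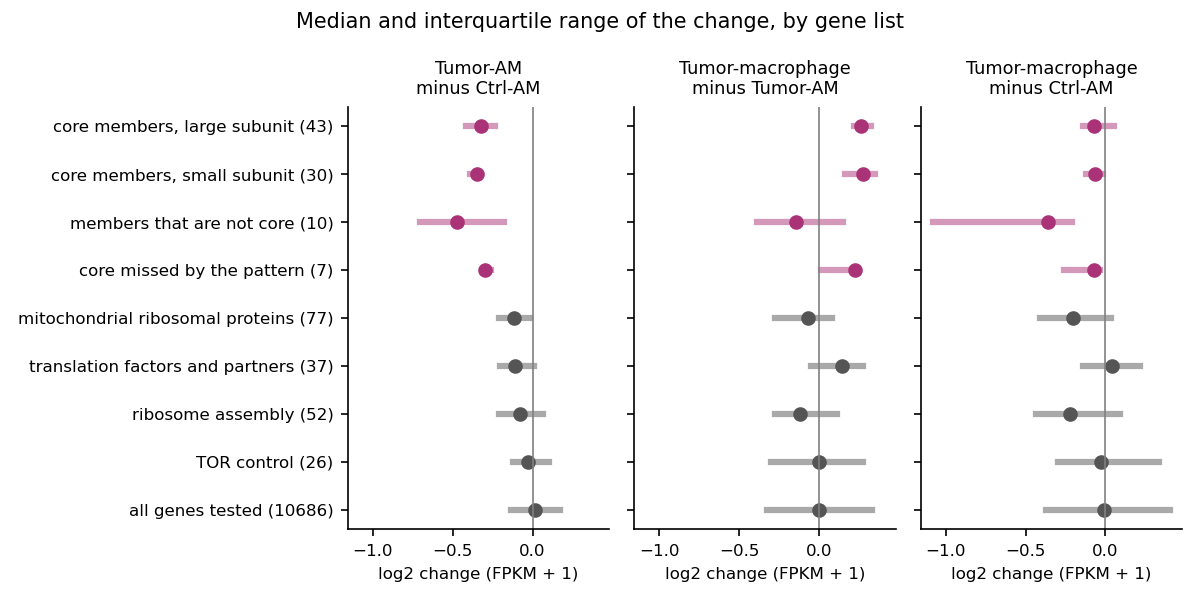
Median (points) and interquartile range (bars) of the log2 changes of each gene list (y axis, number of genes in brackets) in the 3 comparisons (x axes, log2(FPKM + 1)). In Tumor-AM minus Ctrl-AM the core ribosomal lists lie at -0.35 to -0.30, the members that are not core at -0.47, and the other lists at -0.12 to 0.01.

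Transcript length and level were examined because the members are short and abundant, with transcripts of a median of 860 bases against 2800 for the genes tested. Among genes that are no members, the 762 with transcripts under 1000 bases had a median of -0.10 in Tumor-AM against Ctrl-AM and were called lower in 7.09% and higher in 4.33%. The 207 of them with a mean over 100 FPKM had a median of -0.06 and were called lower in 5.80% and higher in 9.66%, where the members' median was -0.34. In Tumor-AM against Ctrl-AM, 16 of 29 members with the pyrimidine tract and 18 of 34 without it were lower, with medians of -0.33 in both. In Tumor-macrophage against Tumor-AM, 19 of the 29 and 17 of the 34 were higher, with medians of 0.30 and 0.23, and the difference between these classes was not tested.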

How the data were processed

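Full-length cDNA (SMART-Seq HT) was sequenced from 9 samples, 3 per group. Per the labels and the study's methods, the authors aligned 75-base reads to mm10 with TopHat2 2.1.1 and Bowtie2 and deposited FPKM values per gene symbol and sample (Cuffdiff 2.2.1 in the processing notes). The annotation and the handling of reads with several matches are not given in the sources used here, and either could move reads between a member and its pseudogenes. No counts were used, so no counting intervals are given.

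From these FPKM, genes with at least 1 FPKM in at least 3 samples were tested on log2(FPKM + 1) with limma 3.58.1 (R 4.3.3; intensity trend, all 9 samples in one fit, two-sided, Benjamini-Hochberg over 10686 genes, threshold 0.05). SE are limma's. The fit was first tested on simulated data. The p-values measure the spread between 3 samples a group, which the study gives as separate mice. Shares, windows and start sites were computed in Python 3.11.15 with pandas 2.3.3 and the GENCODE M21 and RefSeq tables.

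The members and lists were chosen with earlier results of these data known. Members were named with values if they had the 6 largest called changes each way in a comparison, the 5 largest called changes each way against the median member, the 5 highest levels or the 5 highest window shares, or if they were not core; of other lists, some of the missed core genes and the largest changes are named. Rpl22, Rps4x and Rpl34-ps1 appear as partners only. Single values of some genes are not reported here.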

Additional observations from a re-analysis of the deposited data

How the results depend on the processing

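Direction was kept for the median change and the share in each setting tried. Rescaling to TPM and rescaling to the summed FPKM of the other genes moved the counts: lower in Tumor-AM than Ctrl-AM 74 and 74 (from 47), with medians of -0.48 and -0.50; higher in Tumor-macrophage than Tumor-AM 31 and 31 (from 50); against Ctrl-AM 63 and 64 lower (from 13), 1 and 1 higher (from 2), with medians of -0.32 and -0.33. Quantile normalization gave 33 lower and 1 higher in that last comparison, and constant prior variance 1 higher. Requiring a 2-fold change left 0 lower in the first comparison, 0 higher in the second, and 0 higher and 3 lower in the third. Restricting to the 23 members with under 20% of windows elsewhere, an alternative chosen after seeing the data, gave 13 lower, 11 higher, and 0 higher and 6 lower, with fewer members to count. With at least 5 FPKM, 80 members stayed and 1 rather than 2 was lower in Tumor-macrophage than Tumor-AM, as Rpl3l left the test.

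Against the median member, constant prior variance gave 1 call in the first comparison and 10 in the second (from 2 and 16), and the replicate block 1 in the first. Leaving out 1 sample at a time gave 20 to 53 lower, 34 to 57 higher, and 1 to 3 higher with 8 to 16 lower in the 3 comparisons; against the median member 0 to 4, 10 to 15 and 10 to 17; medians of -0.37 to -0.29, 0.21 to 0.32 and -0.11 to -0.02; and share ratios of 0.708 to 0.730, 1.08 to 1.15 and 0.773 to 0.827. Apart from the smaller number of samples or members where these were left out, the cause was not tested. With the replicate number as a block, 54 members were lower in the first comparison, 53 higher in the second, and 16 lower and 3 higher in the third; deviations of same-numbered samples correlated at -0.06 to 0.16 (0.03 to 0.11 between Tumor-AM and Tumor-macrophage). The labels do not say whether same-numbered samples of these groups came from the same mouse, and the correlations do not settle it.

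Of 1728 values of single members under other settings, 1602 kept their side of the threshold, 47 lost a call and 75 gained one. Another 4 changed direction with a call in the main or the other setting. These included Rpl19 in Tumor-macrophage against Ctrl-AM under TPM (-0.011) and the other-gene sum (-0.026). The rest were Rps27 summed with Rps27rt, at -0.51 in Tumor-AM and -0.30 in Tumor-macrophage against Ctrl-AM. The 4 sums were also chosen after seeing the data. A change of direction without a call in either setting was counted among the 1602. An example is Rps23 in Tumor-macrophage against Ctrl-AM (0.06, lowest -0.19). Depth limits the members under 10 FPKM, Rpl3l, Rpl39l and Rpl37rt.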
